A study of Mus musculus with 36 samples.

Results

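The genes described here are 7 immediate early genes, Fos, Jun, Junb, Egr1, Atf3, Ier2 and Myc, measured in skeletal muscle of mice with and without dystrophin. They were chosen by name: every probe set of the array that the platform annotation assigns to one of them was taken, which gave 12 of the 12488 probe sets, which together name 8251 genes. Of these 12, 6 were bright enough to be tested, 1 for each gene except Myc, among 7453 tested probe sets in all. The other 6, the single Myc probe set among them, had a mean log2 signal below the limit of 8.45 and are described separately.

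Immediate early genes are transcribed within minutes of a stimulus, without new protein synthesis, and their messenger RNAs are short-lived. Fos, Jun and Junb encode subunits of AP-1, a dimeric transcription factor, and Atf3 encodes a related leucine zipper protein that is induced by cellular stress and often acts as a repressor. Egr1 encodes a zinc finger transcription factor, Myc a factor that promotes growth and proliferation, and Ier2 a small nuclear protein induced by growth factors. In skeletal muscle these genes are known to respond to contraction, stretch and injury, and they are also induced in activated macrophages and in dividing muscle precursor cells.

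The promoters of Fos, Jun, Junb and Atf3 are shown because these 4 of the 7 genes matched the RefSeq promoter table (GRCm38.p6). Ier2, Egr1 and Myc had no sequence there. Each sequence is the 150 bases before the annotated start, on the strand of the gene, and capitals mark the letters of the motifs found on either strand.
Fos chr12:85473740-85473889 (plus strand): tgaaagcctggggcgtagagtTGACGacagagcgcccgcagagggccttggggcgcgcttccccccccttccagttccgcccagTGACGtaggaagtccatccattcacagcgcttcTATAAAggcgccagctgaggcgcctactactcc
Jun chr4:95052223-95052372 (minus strand): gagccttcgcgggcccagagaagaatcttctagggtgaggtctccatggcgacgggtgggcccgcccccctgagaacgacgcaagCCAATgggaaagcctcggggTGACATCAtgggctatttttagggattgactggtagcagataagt
Junb chr8:84978749-84978898 (minus strand): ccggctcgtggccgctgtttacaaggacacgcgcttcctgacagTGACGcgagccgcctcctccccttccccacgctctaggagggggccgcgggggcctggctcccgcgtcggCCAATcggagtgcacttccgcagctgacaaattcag
Atf3 chr1:191183334-191183483 (minus strand): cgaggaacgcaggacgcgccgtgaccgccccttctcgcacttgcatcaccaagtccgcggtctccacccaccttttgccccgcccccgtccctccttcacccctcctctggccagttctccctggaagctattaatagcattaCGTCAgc
Of the motifs searched on both strands, TGACGTCA is the cyclic AMP response element. TGACG is its core and lies within it. The AP-1 site was searched as TGANTCA and the variant known from the Jun promoter as TGACATCA. The TATA box was searched as TATAAA. The CCAAT box and the serum response element, the binding site of serum response factor, were searched as well. A match is a description of the letters, and a missing one says only that they are not in this window. TGACG stood at 129 to 125 and at 66 to 62 bases before the start of Fos, at 106 to 102 before that of Junb and, on the other strand, at 7 to 3 before that of Atf3. It was present in 13.3% of the 32851 promoters of the table over the same window. Jun held TGACATCA at 45 to 38 bases before its start, a motif found in 2.32% of promoters. TATAAA was found in Fos, at 33 to 28 bases (7.57% of promoters), and CCAAT in Jun at 65 to 61 bases and in Junb at 36 to 32 bases (24.5%). None of the 4 windows held TGACGTCA, TGANTCA or the serum response element, which occurred in 1.36%, 4.24% and 0.916% of promoters.

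Affymetrix MG_U74Av2 arrays measured RNA of the diaphragm, EDL (extensor digitorum longus), gastroc (gastrocnemius), quadriceps, soleus and TA (tibialis anterior). The muscles came from male mice aged 8 weeks of 3 kinds: C57BL10, the normal strain, and mdx and mdx5cv, which carry different mutations of Dmd, the gene of dystrophin. Each of the 18 groups had 2 samples, each being RNA pooled from 5 mice. The labels name no treatment and no further allele, do not give the background strain of the mutants, and do not say whether the 2 samples of a group are separate pools, so p-values measure only the spread between these samples. Both mutations are carried by the whole animal, so any tissue change in these muscles enters the measurement.

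Identical values stood in mdx gastroc sample 2 and mdx quadriceps sample 2. The same held for sample 1 of mdx5cv in gastroc and quadriceps. The gastroc copies were left out, which left 34 arrays (12 C57BL10, 11 mdx, 11 mdx5cv), and the gastroc of either mutant then had a single array. The arrays that stand apart were sample 2 of C57BL10 TA and sample 2 of mdx5cv quadriceps, with a median Spearman correlation across probe sets with the other arrays of 0.615 and 0.764 (0.833 to 0.93 for the rest), and results that rest on them are given with and without them. The description of mdx EDL sample 1 gives the strain as mdx5cv, unlike its other labels. It was kept as mdx, and leaving it out changed no count of member calls in the strain averages. Dmd signal was 369 to 1928 in C57BL10, 104 to 587 in mdx and 159 to 519 in mdx5cv, with medians of 668, 217 and 302, and none of 13 skeletal muscle markers was at the floor on every array. Scan dates, read for 30 arrays, fell into 4 periods: the third held arrays of all strains (4 C57BL10, 5 mdx, 6 mdx5cv), while the second held only mutants and the other two only C57BL10. The 3' to 5' ratio of actin, a sign of RNA integrity, averaged 0.768 ± 0.114 (SD) over the 12 C57BL10 arrays. The 11 mdx arrays averaged 1.10 ± 0.343 (SD) and the 11 mdx5cv arrays 1.03 ± 0.126 (SD). Sample 2 of mdx soleus had the highest actin ratio (1.964) and also the highest 3' to 5' ratio of Gapdh (3.445).

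The first comparison asks how the level of these genes differs between dystrophic and normal muscle, as the mean over the 6 muscles. Fos, Atf3, Junb and Ier2 rose in both mutants, and Egr1 and Jun did not pass the test in either. Of the 6 tested probe sets, 4 were higher in mdx than in C57BL10 (limma, Benjamini-Hochberg adjusted p under 0.05), where 15.9% of all tested probe sets were called and 10.1% were higher. The same 4 genes were higher in mdx5cv, where 15% of all tested probe sets were called and 10.6% were higher. The comparisons share the C57BL10 arrays, so they are not independent of each other. In bulk muscle, a change in the number of cells of a type and a change in RNA per cell cannot be told apart.

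Fos, the AP-1 subunit that dimerises with Jun proteins, differed most. Its signal was 400.3 to 994 in C57BL10 (median 567), 1068 to 3111 in mdx (median 1898) and 956 to 1994 in mdx5cv (median 1439). All 11 mdx arrays lay above the highest C57BL10 array, a pattern shown by 0.577% of tested probe sets, while 9 of 11 mdx5cv arrays did and the ranges overlapped (0.979% of tested probe sets did not overlap). On the log2 scale, where a difference of 1 is a 2-fold change, Fos rose by 1.62 ± 0.16 (SE) in mdx, with a limma adjusted p of 7.6e-08. In mdx5cv it rose by 1.15 ± 0.16 (SE), with a limma adjusted p of 1.2e-05. These changes ranked at percentile 99.0 and 97.5 of all tested probe sets, and the mean of each mutant was higher in 6 of 6 muscles. Without the 2 arrays that stand apart the changes were 1.69 ± 0.15 and 1.30 ± 0.15.

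Fos also differed among arrays scanned in the same period. In the third period its signal was 453 to 623 in 4 C57BL10 arrays and 956 to 2232 in 11 mutant arrays. These ranges did not overlap, but how many of all tested probe sets separate there was not counted. The 4 C57BL10 arrays were of EDL, gastroc, quadriceps and soleus, so that period held no C57BL10 diaphragm or TA, while 4 of the 11 mutant arrays were of those muscles. The 7 mutant arrays of the other muscles spanned the same 956 to 2232. In the fit of that period alone the log2 difference was 1.69 ± 0.29 in mdx and 1.22 ± 0.27 in mdx5cv (SE, limma adjusted p = 0.0038 and 0.019). Fos was the single member called in that fit for either mutant, and the share of all tested probe sets called there is not given.

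Atf3, the stress-induced repressor, had the steadiest signal of the 6. It was 562 to 1351 in C57BL10 (median 973), 1134 to 1908 in mdx (median 1565) and 1089 to 2040 in mdx5cv (median 1509). The mutant arrays lay higher, and 9 of 11 mdx and 8 of 11 mdx5cv arrays lay above the highest C57BL10 array. In mdx Atf3 rose by 0.78 ± 0.12 (SE, adjusted p = 6.2e-05). The rise in mdx5cv was 0.72 ± 0.12 (adjusted p = 1.8e-04). In the third scanning period alone the differences were 0.69 and 0.67 and did not pass the test (adjusted p = 0.22 and 0.17). There the signal was 644 to 1324 in C57BL10 and 1318 to 1824 in the mutants.

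Junb, an AP-1 subunit that often restrains the activity of Jun, was 308 to 2548 in C57BL10 (median 663), 441 to 1818 in mdx (median 1181) and 672 to 2876 in mdx5cv (median 1132). The highest C57BL10 value was TA sample 2 and the highest mdx5cv value quadriceps sample 2, the arrays that stand apart. Without TA sample 2 the highest C57BL10 value was 947, and 9 of 11 mdx and 8 of 11 mdx5cv arrays lay above it. In mdx Junb rose by 0.80 ± 0.23 (SE, adjusted p = 0.017). The rise in mdx5cv was 0.86 ± 0.23 (adjusted p = 0.0100). Without both arrays the changes were 0.92 ± 0.17 (adjusted p = 4.5e-04) and 0.81 ± 0.18 (adjusted p = 0.0020). With scanning period as a block the mdx call was lost (0.92). With scan day as a random block the mdx5cv call was lost (0.74). Both fits used only the 30 arrays with a scan date, and the period fit took strain and muscle as additive effects in place of group means. It counted the fourth period, 1 C57BL10 array, with the third. The arrays, and for period the model, thus changed along with the added term.

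Ier2, the growth factor-induced nuclear protein, was 416 to 1537 in C57BL10 (median 808), 863 to 2396 in mdx (median 1383) and 778 to 1736 in mdx5cv (median 1362). The groups overlapped, and only 3 of 11 arrays of each mutant lay above the highest C57BL10 array, a diaphragm sample. In mdx Ier2 rose by 0.68 ± 0.16 (SE, adjusted p = 0.0040). The rise in mdx5cv was 0.53 ± 0.16 (adjusted p = 0.024). The mdx5cv call was lost without C57BL10 quadriceps sample 1 (0.45, adjusted p = 0.060), C57BL10 soleus sample 2 (0.49, adjusted p = 0.052) or mdx5cv TA sample 2 (0.49, adjusted p = 0.051). It was also lost in 5 of 13 other settings, with adjusted p of 0.061 to 0.42. With the actin ratio as a covariate neither call held (0.73 and 0.58, adjusted p = 0.058 and 0.12).

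Egr1, the zinc finger factor, was 611 to 1793 in C57BL10 (median 978), 492 to 2165 in mdx (median 1355) and 614 to 1561 in mdx5cv (median 1380). The median was higher in both mutants than in C57BL10, but the ranges overlapped. The log2 differences were 0.25 ± 0.17 in mdx and 0.28 ± 0.17 in mdx5cv (SE, adjusted p = 0.34 and 0.33). Without the 2 arrays that stand apart the Egr1 differences were 0.30 in mdx and 0.44 in mdx5cv. Jun, the partner of Fos in AP-1, was 406 to 1918 in C57BL10 (median 1059), 613 to 1825 in mdx (median 1022) and 539 to 1905 in mdx5cv (median 1186). Its ranges in the 3 strains overlapped. Its log2 differences were 0.09 and 0.12, with 95% confidence intervals of -0.27 to 0.44 and -0.24 to 0.48. A 2-fold change of the mean over muscles lay outside these intervals. Without the 2 arrays that stand apart the Jun differences were 0.16 in mdx and 0.30 in mdx5cv.

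**Figure D1:**
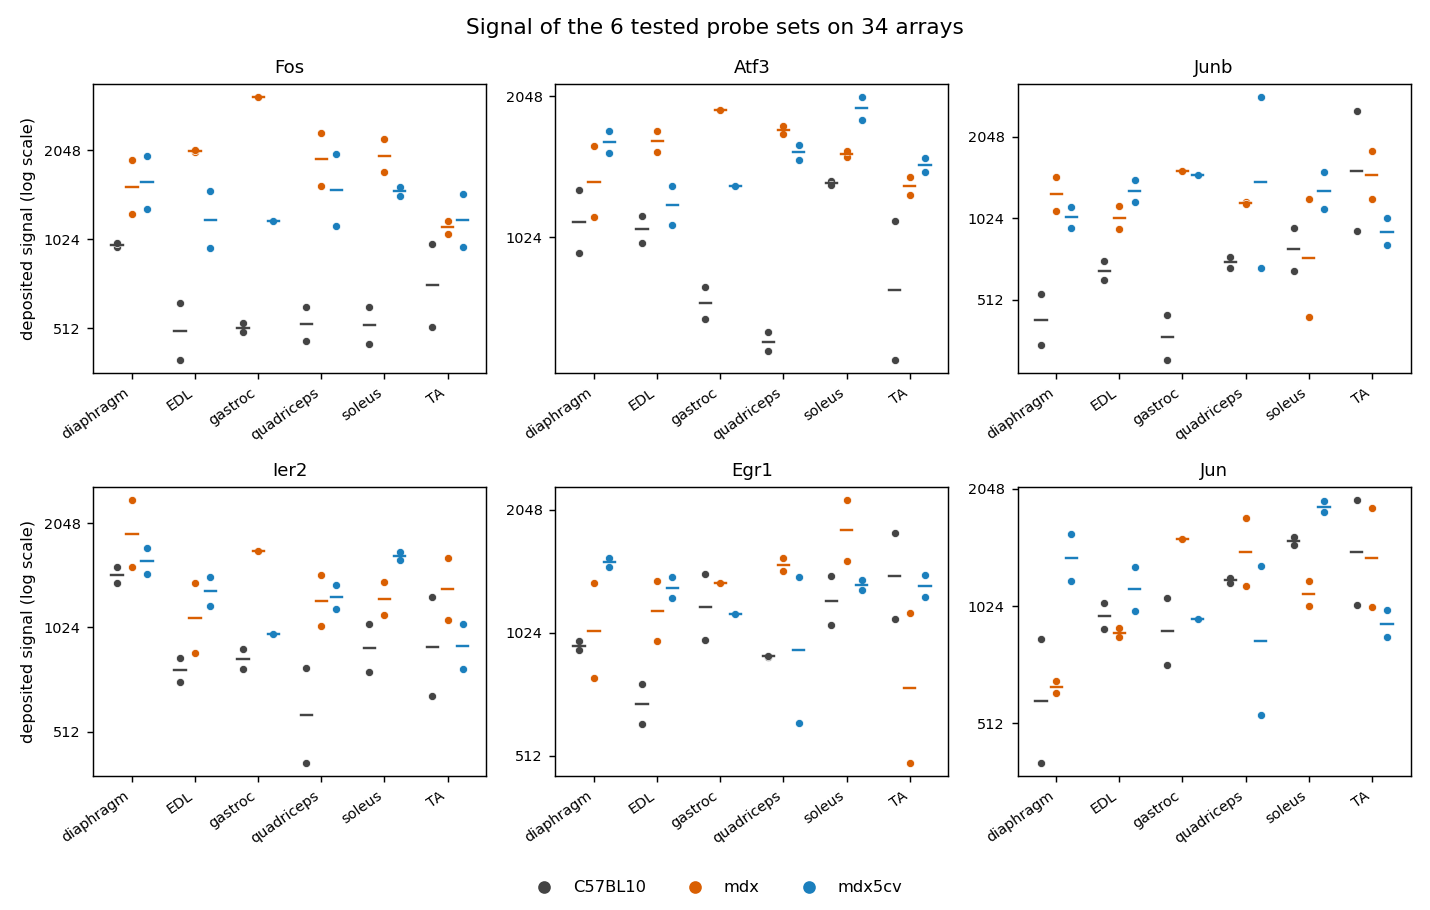
Deposited signal (log axis) of Fos, Atf3, Junb, Ier2, Egr1 and Jun on the 34 arrays, by muscle; each point is 1 array, each short line a group's geometric mean, and colours give the strain. In the Fos panel all 11 mdx arrays lie above all 12 C57BL10 arrays, while in the Jun panel the strains are mixed.

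The plot of signal by muscle and strain shows each array behind these averages, including the high Junb values of C57BL10 TA sample 2 and mdx5cv quadriceps sample 2. The direct comparison of the mutants called none of the 6 genes (0.523% of all tested probe sets were called). Fos was 0.46 ± 0.17 (SE) lower on the log2 scale in mdx5cv than in mdx, with an unadjusted p of 0.011 and a limma adjusted p of 0.35. The other 5 genes differed by -0.15 (Ier2) to 0.06 (Junb), and the confidence interval of the Junb difference ran from -0.42 to 0.55.

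The second comparison asks in which muscles the mutants, taken as the mean of mdx and mdx5cv, differ from C57BL10. Of 36 tests (6 genes in 6 muscles) 8 passed: Fos in 4 muscles, Atf3 in 2, Junb in 1 and Ier2 in 1, and all 8 were higher in the mutants. The share of tested probe sets called was 2.98% in the diaphragm, 2.6% in the EDL, 2.25% in the gastroc, 5.51% in the quadriceps, 1.56% in the soleus and 4.12% in the TA. The share called higher was 2.31%, 2.28%, 2.15%, 3.98%, 1.38% and 3.14% in the same order. No member was called in the diaphragm or the TA. Without the 2 arrays that stand apart, Junb passed in the diaphragm (1.40 ± 0.34, adjusted p = 0.014).

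Fos passed in the EDL, gastroc, quadriceps and soleus, the 4 muscles with its lowest C57BL10 means. The C57BL10 level enters the difference itself, so level and difference are not independent. The higher C57BL10 mean of the TA rested on its sample 2, which stands apart. In the EDL the C57BL10 samples read 400.3 and 623, the mdx samples 2029 and 2047 and the mdx5cv samples 1489 and 956. In the gastroc C57BL10 read 496 and 532, the single mdx array 3111 and the single mdx5cv array 1179. The lowest mutant value lay above the highest C57BL10 value in both muscles, and the rise was 1.64 ± 0.33 (adjusted p = 0.0038) and 1.90 ± 0.38 (adjusted p = 0.0047). In the quadriceps C57BL10 read 465 and 602, mdx 2354 and 1556, and mdx5cv 1994 and 1132, a rise of 1.68 ± 0.33 (adjusted p = 0.0021). In the soleus C57BL10 read 605 and 453, mdx 1731 and 2232, and mdx5cv 1439 and 1544, a rise of 1.71 ± 0.33 (adjusted p = 0.0046). The groups did not overlap there either.

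In the other muscles the change of Fos did not pass. The diaphragm read 962 and 994 in C57BL10, 1247 and 1898 in mdx, and 1297 and 1968 in mdx5cv, a log2 difference of 0.68 ± 0.33 (adjusted p = 0.37). The TA read 519 and 990.2 in C57BL10, 1068 and 1182 in mdx, and 967 and 1456 in mdx5cv, a difference of 0.69 ± 0.33 (adjusted p = 0.22). Without the 2 arrays that stand apart, 1 of them C57BL10 TA sample 2, the TA difference was 1.15 ± 0.37 (SE). In the diaphragm the mutant values were still all above the C57BL10 ones, a pattern whose share over all tested probe sets was not counted. In the TA 1 mdx5cv array lay below TA sample 2. Each call of Fos within a muscle had a C57BL10 array without which it was lost: EDL sample 1 (1.32, adjusted p = 0.19), gastroc sample 1 (1.85, adjusted p = 0.062), quadriceps sample 1 (1.49, adjusted p = 0.074) and soleus sample 2 (1.50, adjusted p = 0.18).

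Atf3 rose most in the quadriceps, from 586 and 644 in C57BL10 to 1704 and 1772 in mdx and 1614 and 1500.0 in mdx5cv. That change was 1.42 ± 0.25 (SE, adjusted p = 8.6e-04). In the gastroc it rose by 1.09 ± 0.29 (adjusted p = 0.048), from 804 and 687 to 1908 in mdx and 1318 in mdx5cv. In the soleus, where C57BL10 was already at 1351 and 1324, the difference was 0.37 ± 0.25 (adjusted p = 0.78). Junb was called in the gastroc, where it went from 452 and 308 to 1530 in mdx and 1475 in mdx5cv, a change of 2.01 ± 0.54 (adjusted p = 0.047). Of 32 fits that left out 1 array, the gastroc calls of Junb and Atf3 were lost in 25 and 24.

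Ier2 rose in the quadriceps by 1.12 ± 0.32 (SE, adjusted p = 0.039), from 416 and 783 in C57BL10 to 1450 and 1035 in mdx and 1160 and 1362 in mdx5cv. Without C57BL10 quadriceps sample 1, the lowest Ier2 value of all arrays, the difference was 0.66 (adjusted p = 0.52). The call was lost in 5 of 32 fits that left out 1 array and in 5 of 12 other settings, with adjusted p of up to 0.17 in the latter. Egr1 and Jun passed in no muscle. Egr1 differed by -0.49 ± 0.35 in the TA to 0.85 ± 0.35 in the EDL, and Jun by -0.33 ± 0.35 in the TA to 0.67 ± 0.35 in the diaphragm. Both TA values rested on C57BL10 TA sample 2, and without the 2 arrays that stand apart they were -0.14 ± 0.38 for Egr1 and 0.12 ± 0.38 for Jun.

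Whether the change itself differed between muscles was tested with a moderated F test over the 6 muscles. None of the 6 genes was called (0.644% of all tested probe sets were). The adjusted p ran from 0.56 (Junb) to 0.88 (Ier2), and at an unadjusted p under 0.05 there were Junb (0.035), Atf3 (0.038) and Fos (0.048). The Fos changes in the diaphragm and TA are thus not shown to differ from those in the other muscles.

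**Figure D2:**
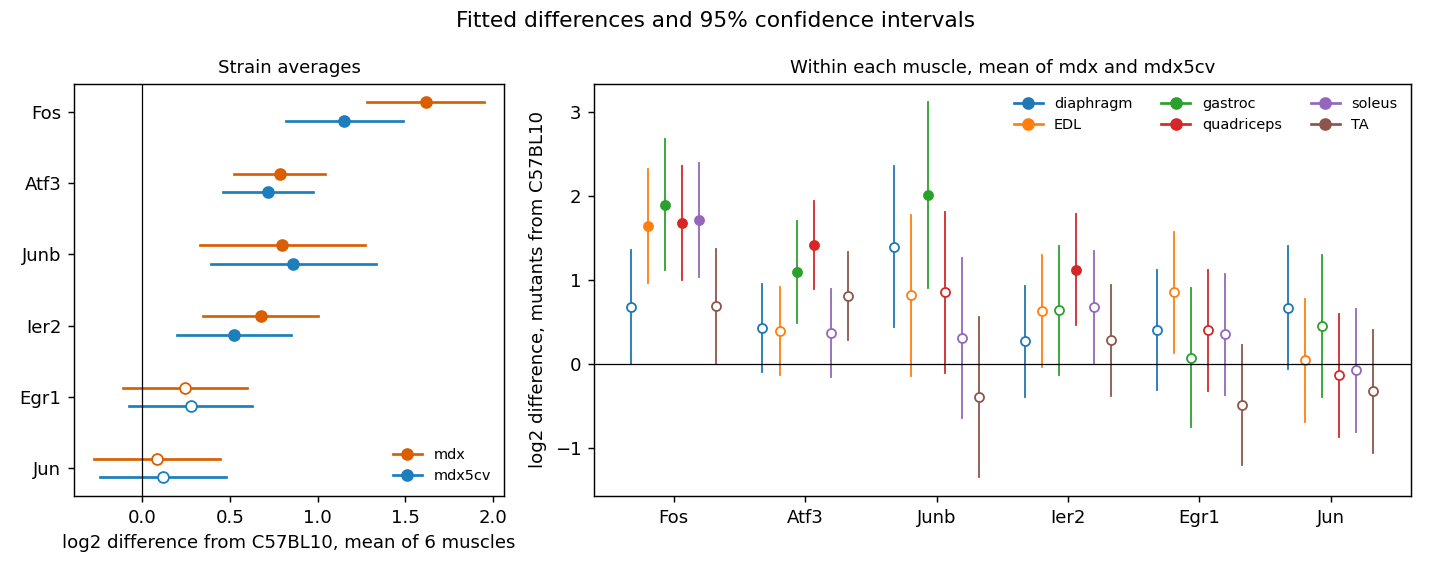
Left, log2 difference of mdx and mdx5cv from C57BL10 as the mean of 6 muscles; right, log2 difference of both mutants from C57BL10 in each muscle. Points are limma estimates, lines 95% confidence intervals, and filled points passed an adjusted p of 0.05; Fos is filled in 4 muscles and in both strain averages.

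In normal muscle the genes had different orders of level. Of 36 tests of 1 C57BL10 muscle against the other 5, 3 passed: Jun and Ier2 in the diaphragm, where 16.1% of tested probe sets were called, and Junb in the TA, where 6.56% were. In the EDL, gastroc, quadriceps and soleus, where no member passed, 1.6%, 0.805%, 0.926% and 2.55% were called. Ier2 was highest in the diaphragm (1375 and 1537), 0.89 ± 0.29 (SE) above the other muscles with a limma adjusted p of 0.035. Jun was lowest there (406 and 842), with a log2 difference of -0.995 ± 0.32 (adjusted p = 0.033). Fos was also highest in the diaphragm (962 and 994), with a difference of 0.83 ± 0.29 that did not pass (adjusted p = 0.057), and without the 2 arrays that stand apart it passed (0.92 ± 0.26, adjusted p = 0.012). Liver markers moved with the diaphragm: their summed signal over 11 genes was 359100 and 363100 there and 5222 to 50840 on the 10 other C57BL10 arrays. Their part in these differences was not tested. Without diaphragm sample 1 the Jun difference was -0.47 (adjusted p = 0.66) and that of Ier2 0.97 (adjusted p = 0.19).

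Below the diaphragm, the Fos level in C57BL10 fell in the order TA (519 and 990.2), quadriceps, soleus, gastroc and EDL, and the last 4 all lay between 400.3 and 623 and overlapped each other. TA sample 1 alone (519) lay within that range, so the place of the TA rested on sample 2, which stands apart. Ier2 followed the order diaphragm, TA, soleus, gastroc, EDL and quadriceps, where each muscle after the TA overlapped its neighbour. TA sample 1 alone (650.1) would stand between the EDL and the quadriceps. Jun was highest in the soleus (1464 and 1540), then TA (1033 and 1918), quadriceps (1209 and 1177), EDL, gastroc and diaphragm. Atf3 was highest in the soleus (1351 and 1324) and lowest in the quadriceps (586 and 644), and its other 4 muscles lay between 562 and 1289. Without the 2 arrays that stand apart, its log2 difference of the quadriceps from the other muscles was -0.78 ± 0.19 (SE). Egr1 was highest in the TA (1105 and 1793) and lowest in the EDL (611 and 766), but TA sample 1 alone lay below the means of the soleus (1238) and gastroc (1204). Jun in TA sample 1 alone (1033) likewise lay below the mean of the quadriceps (1193). Junb fell in the order TA, soleus (947 and 653), quadriceps (738 and 674), EDL, diaphragm and gastroc (452 and 308), and each muscle from the soleus to the EDL overlapped its neighbour. The Junb call in the TA (1.43 ± 0.42, adjusted p = 0.042) rested on TA sample 2, which read 2548 against 920.3 in sample 1. Without that sample the difference was 0.70 (adjusted p = 0.95).

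Myc, the growth-promoting factor, was dim. Its signal was 81.4 to 459 in C57BL10 (median 115), 171 to 508 in mdx (median 262) and 170 to 895 in mdx5cv (median 254). It was at or below the floor of 117.5 on 6 of 12 C57BL10 arrays and on no mutant array, and the highest values of C57BL10 and mdx5cv were those of the arrays that stand apart. Fitted without the filter on low values, where 8.51% of 12422 probe sets were called in mdx and 8.25% in mdx5cv, the log2 difference was 0.75 ± 0.28 in mdx (adjusted p = 0.11). For mdx5cv it was 0.91 ± 0.28 (adjusted p = 0.043). Without the 2 arrays that stand apart, a setting chosen after seeing the data, both differences passed, at 0.90 ± 0.21 (adjusted p = 0.0092) and 0.91 ± 0.22 (adjusted p = 0.011). Values set to the floor understate such differences.

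The second Junb probe set was low on every C57BL10 array except TA sample 2. It read 81.5 to 187 on 11 of them and 1112 on that array, against 105 to 1314 in mdx (median 214) and 162 to 1062 in mdx5cv (median 533). Its log2 difference without the filter was 1.19 ± 0.34 in mdx (adjusted p = 0.029). For mdx5cv it was 1.39 ± 0.34 (adjusted p = 0.0094), the same direction as the brighter probe set. Among mutant arrays it was 162 to 1314 in the second scanning period (median 705, n = 9) and 105 to 1062 in the third (median 198, n = 11). The brighter Junb probe set did not show that order, with medians of 1107 and 1424.

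The brighter of the other Atf3 probe sets had a median of 89.7 in C57BL10, 336 in mdx and 530.1 in mdx5cv. Its highest C57BL10 value was again TA sample 2 (911). Without the filter the log2 difference was 0.86 ± 0.32 in mdx (adjusted p = 0.11). For mdx5cv it was 1.40 ± 0.32 (adjusted p = 0.0055). Without the 2 arrays it was 1.11 ± 0.26 (adjusted p = 0.0089) and 1.58 ± 0.27 (adjusted p = 7.2e-04). The remaining 3 probe sets were at the floor on 32 of 34 arrays (the third of Atf3), 25 (the second of Egr1) and 15 (the second of Fos). Their differences lay between -0.18 and 0.25 and none passed, so the second Fos probe set did not show the rise of the first at signals of 14.4 to 657.

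**Figure D3:**
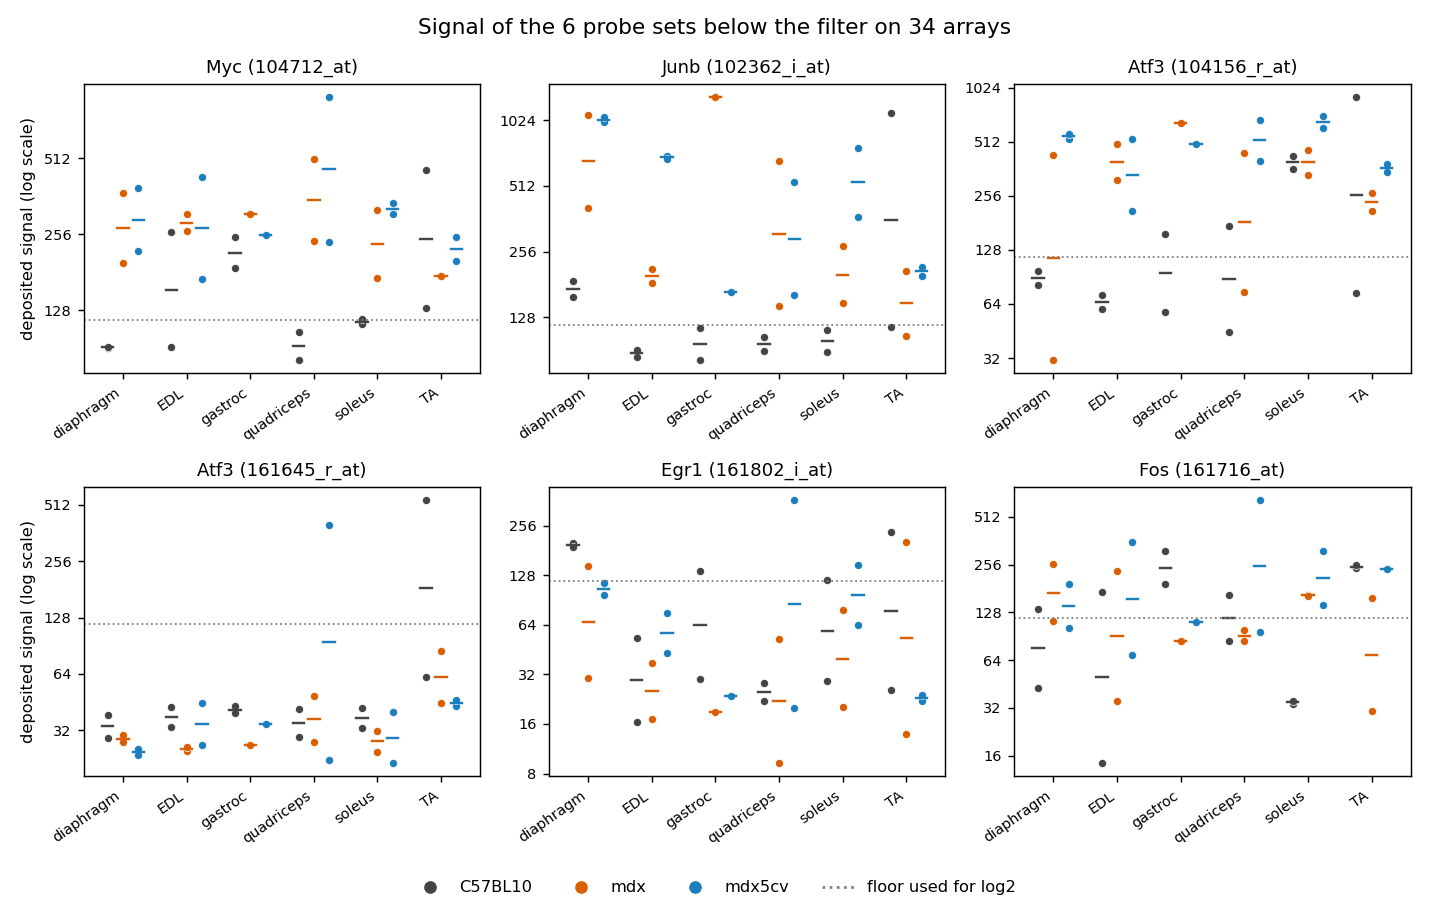
Deposited signal (log axis) of the 6 probe sets below the filter on the 34 arrays, by muscle and strain; each point is 1 array, each short line a group's geometric mean, and the dotted line the floor of 117.5. Myc lies above the floor on all mutant arrays and at or below it on 6 of 12 C57BL10 arrays.

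The plot of the dim probe sets shows how far single arrays set their ranges. Related genes were then described as lists, to be read beside the 5.81% of all tested probe sets that were lower in mdx and the 4.43% that were lower in mdx5cv. Among arrays of the third scanning period alone, 0 to 3 genes of each of the 6 lists were called higher in either mutant. The share of all tested probe sets called in that smaller fit is not given here. The counts are thus not shown to be particular to these lists. Among other AP-1 and ATF relatives, Jund, the third Jun protein, rose in mdx by 0.68 ± 0.17 (SE, adjusted p = 0.0071). Its rise in mdx5cv was 0.61 ± 0.17 (adjusted p = 0.015). Of 13 tested genes of that list 1 was higher and 3 lower in mdx, and 1 higher and 1 lower in mdx5cv. The genes that fell in mdx were Ddit3 (log2 difference -0.95), Atf5 (-0.68) and Atf4 (-0.37), members of the endoplasmic reticulum and amino acid stress response, and Atf5 also fell in mdx5cv (-0.78). The list median was -0.08 and -0.06, near the -0.05 and 0.02 of all tested probe sets.

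Of 19 other immediate early transcription factors, 6 were higher and 0 lower in mdx, and 3 were higher and 2 lower in mdx5cv (medians 0.10 and -0.01). Klf5, a factor of proliferating cells, rose by 1.02 ± 0.24 and 1.15 ± 0.24 in mdx and mdx5cv (adjusted p = 0.0044 and 0.0014). Id2, an inhibitor of basic helix-loop-helix factors, rose by 0.94 ± 0.18 and 1.18 ± 0.18 (adjusted p = 5.0e-04 and 3.5e-05). Klf10, a TGF-beta-induced factor, rose by 0.78 ± 0.11 and 0.80 ± 0.11 (adjusted p = 1.7e-05 and 1.3e-05). Klf6 was called in mdx (0.79 ± 0.20) and not in mdx5cv (0.28 ± 0.20), while the clock gene Per1 fell in mdx5cv (log2 difference -1.06). Whether these differed between the mutants is covered by their direct comparison, which called 0 of the 19.

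Of 29 other immediate early products, 9 were higher and 2 lower in mdx, and 8 higher and 1 lower in mdx5cv (medians 0.11 and 0.12). Gadd45a, a growth arrest gene, rose by 1.17 ± 0.13 and 0.94 ± 0.13, whereas its relative Gadd45g fell (log2 differences -0.71 ± 0.16 and -1.33 ± 0.16). Socs3, the feedback inhibitor of cytokine signalling, rose by 1.11 ± 0.17 and 1.34 ± 0.17. Zfp36l2, which destabilises AU-rich messenger RNAs, rose by 1.09 ± 0.14 and 0.72 ± 0.14. The adjusted p of these 8 values ran up to 0.0032.

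Of 14 AP-1 and Egr1 targets and corepressors, 7 were higher and 1 lower in mdx, and 6 higher and 0 lower in mdx5cv (medians 0.39 and 0.28). Mmp3, stromelysin-1, rose by 1.63 ± 0.27 and 1.86 ± 0.27, and Timp1, the inhibitor of such proteases, by 1.36 ± 0.14 and 1.39 ± 0.14. Tnc, the matrix protein tenascin-C, rose by 1.21 ± 0.17 and 1.41 ± 0.17. Nab2, the corepressor induced by Egr1, rose by 0.88 ± 0.24 (adjusted p = 0.014) and 0.79 ± 0.24 (adjusted p = 0.027), although Egr1 itself was not called. Among 16 upstream kinases and serum response factors, 3 were higher and 1 lower in mdx and 1 higher and 1 lower in mdx5cv (medians -0.11 and -0.09), with Nras higher in both (1.19 ± 0.21 and 1.12 ± 0.21). Among 16 Myc partners and targets, 1 was higher and 1 lower in mdx and 2 higher and 1 lower in mdx5cv (medians 0.06 and 0.14). Ccnd1, cyclin D1, rose by 0.52 ± 0.13 and 0.65 ± 0.13, and Zbtb17, the Myc partner Miz-1, fell (-1.08 ± 0.30 and -0.97 ± 0.30).

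**Figure D4:**
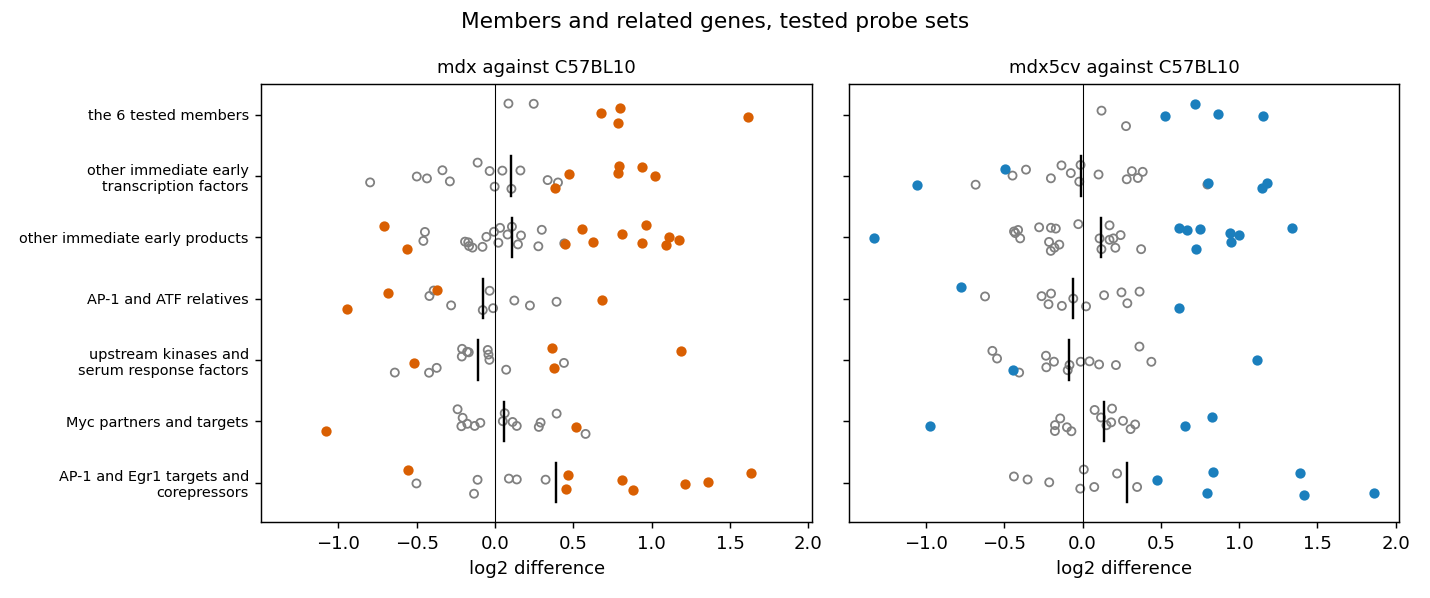
Log2 difference of mdx (left) and mdx5cv (right) from C57BL10 for the 6 tested members and the tested genes of 6 related lists; each point is 1 gene, filled where the adjusted p was under 0.05, and black bars are list medians. The list medians of mdx run from -0.11 to 0.39, and those of mdx5cv from -0.09 to 0.28.

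Markers of other cell types moved with the strains as well. All 13 tested macrophage markers were higher in mdx and in mdx5cv, with medians of 1.92 and 1.86. Their summed signal over 16 genes, none at the floor on all arrays, was 12080 to 30460 in C57BL10, 30820 to 98710 in mdx and 37460 to 97180 in mdx5cv. Of 10 tested fibroblast markers, 8 were higher in each mutant, and of 10 tested markers of regenerating muscle, 10 were. Their summed signal was 28580 to 123900, 87720 to 239500 and 110300 to 192300 for fibroblasts, and 18570 to 72000, 65060 to 179200 and 53600 to 126000 for regenerating muscle, in the order C57BL10, mdx and mdx5cv. The part of these cells in the rise of Fos, Atf3, Junb and Ier2 was not tested.

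Within C57BL10 the diaphragm, the muscle with the highest Fos and Ier2, also had the highest macrophage sum, 30260 and 30460 against 12080 to 17010 on the 10 limb arrays. Among mdx arrays, the gastroc array with the highest Fos (3111) had the highest macrophage sum (98710), while the soleus arrays, at 1731 and 2232 for Fos, had the lowest (30820 and 31260). Of 9 tested genes of heat shock and dissection stress, 1 was higher in each mutant. Their summed signal was 24790 to 76300 in C57BL10, 29580 to 63830 in mdx and 35960 to 67260 in mdx5cv. Of 4 tested neutrophil and mast cell markers, none was called in either mutant.

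Likeness to other genes was described by Pearson correlation of log2 signal over the 34 arrays among 5698 genes, with arrays that share strain, muscle and scan period. The genes most like Fos were Mpeg1 (0.89) and Ctss (0.87), both of the macrophage list, and Cstb (0.86), a cystatin. Those most like Atf3 were Anxa4 (0.84), Postn (0.84), which is on the fibroblast list, and Emp1 (0.83). Ier2 was most like H13 (0.76), Lcp1 (0.75) and Lrp1 (0.74). Junb was most like Pygo2 (0.75), Fcgr1 (0.74) and Pclaf (0.72), and without the 2 arrays that stand apart most like Myog (0.80), Ctsk (0.75) and Igf2 (0.72). Jun (Hspa14, 0.61) and Egr1 (Snx1, 0.66) had no gene at or above 0.7, but without those arrays Jun reached 0.72 with Smarce1 and Egr1 0.73 with Septin4. Among the members, Fos correlated with Atf3 (0.71) and Ier2 (0.70), and least with Jun (0.07).

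Deviations of arrays from their group mean, over 32 arrays in 16 groups of 2 (so at most 16 independent values), gave other neighbours. These neighbours are the highest of 5698 genes, and how high unrelated genes would reach was not tested. Those of Fos were Retn (0.81), Cacybp (0.74) and Pcsk7 (0.73), those of Ier2 were Egfr (0.82), Stip1 (0.79) and Mettl1 (0.78), and those of Atf3 were Fyn (0.89), Csrp3 (0.81) and Set (0.80). Those of Junb were Ccl22 (0.84), Ikzf1 (0.83) and Tcf3 (0.83), those of Jun were Prkab1 (0.81), Ifi35 (0.77) and Man2b1 (0.77), and those of Egr1 were Mapre2 (0.82), Akr1e1 (0.79) and Tbc1d23 (0.79). Without the groups of the 2 arrays that stand apart, the 3 nearest genes changed entirely for Junb (Bmyc 0.87, Tspo 0.79, Psg19 0.76) and for Egr1 (Hba-x first, 0.85). The first neighbour stayed the same for Fos (Retn, 0.74), Atf3 (Fyn, 0.77) and Jun (Prkab1, 0.85), and Egfr (0.81) remained among the 3 nearest of Ier2. Between members, the correlation of deviations was 0.56 for Fos and Ier2, also without the groups of the 2 arrays. It was 0.49 for Junb and Ier2 (0.37 without those groups) and -0.44 for Egr1 and Junb (-0.49). Leaving those groups out moved Egr1 and Ier2 from -0.30 to -0.55, and Jun and Egr1 from 0.13 to -0.48. No pair was tested. Fos and Atf3, alike in level, did not deviate together (-0.16, and 0.28 without those groups).

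The genes also differed in how well their samples matched. The SD of log2 signal within groups was 0.23 for Atf3, at percentile 3.84 of all tested probe sets, whose median SD was 0.44. It was 0.35 for Ier2, 0.37 for Fos, 0.40 for Egr1 and 0.41 for Jun, at percentiles 29.4 to 43.7, and 0.58 for Junb, at percentile 75.3.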

How the data were processed

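The authors deposited 1 table of linear signal intensities for 12488 probe sets and 36 samples. Per the file headers of the 30 experiment files read here the arrays were MG_U74Av2, and the signal algorithm and scaling are not given in the sources used here. Trimmed by 2%, the mean of a column was 1500.45 to 1501.3, so no further scaling was applied. All 36 columns were mapped by title, and 0 other columns were present. Scan dates (14 days, 7 chip lots) were split into periods wherever a gap exceeded 30 days.

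Intensities under the 20th percentile of the table (117.5) were set to it before log2 was taken. Of 12422 probe sets that are not controls, those whose mean reached the 40th percentile were kept, 7453 in all. limma 3.58.1 (R 4.3.3) estimated 18 group means, leaving 16 degrees of freedom, followed by eBayes with an intensity trend. A group with a single array borrows the spread of the other groups. All p-values are two-sided, with Benjamini-Hochberg adjustment over the tested probe sets of each contrast and a threshold of 0.05. The code was tested on simulated data in which 200 probe sets were changed. The number of arrays limits the precision.

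The members, gene lists and markers were chosen with earlier results of these data known. Every member probe set is described. For each related list, up to 4 called genes with the largest change in either mutant comparison are named, and a gene is represented by its brightest probe set. Likeness names the 3 genes with the highest correlation per member. Single arrays and member pairs were picked for the text after their values were seen. Gene names came from the platform annotation and promoters from RefSeq (GRCm38.p6). Alternatives changed the filter, floor, normalization and prior variance, added sample number, scan day, period or the actin ratio, kept the gastroc copies, weighted arrays, dropped the 2 arrays that stand apart, or dropped each of 32 arrays in turn. Plots used matplotlib 3.10.9 under Python 3.11.15.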

Additional observations from a re-analysis of the deposited data

How the results depend on the processing

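The counts of called members were 4 for mdx and 4 for mdx5cv against C57BL10, 0 between the mutants, 8 within muscles, 0 for the change between muscles and 3 between C57BL10 muscles. Fos kept its calls in mdx and mdx5cv under all 13 other settings and all 32 fits that left out 1 array (adjusted p up to 0.0038 and 0.019). With the arrays of the third scanning period alone the counts were 1 for mdx and 1 for mdx5cv. That fit used fewer arrays and an additive model of strain and muscle, and no contrast within muscles could be fitted. Its share called over all tested probe sets is not given here. With scan day as a random block mdx5cv had 2. Without the filter 5 calls within muscles were left, with more probe sets tested. Between C57BL10 muscles the count was 1 with period as a block and 6 with array weights. The cause of the changes with scan day, period block and array weights was not tested. Leaving out 1 array gave 4 to 4, 3 to 4, 0 to 0, 4 to 10, 0 to 1 and 0 to 5 calls in the order above. Within muscles the count was lowest without C57BL10 quadriceps sample 1. It was next lowest without C57BL10 diaphragm sample 1 or 2, EDL sample 1, gastroc sample 1 or soleus sample 2. Calls over all tested probe sets were also fewer in each of these fits. The highest counts for the change between muscles and between C57BL10 muscles came without C57BL10 TA sample 1. That group then held only TA sample 2, which stands apart, and calls rose over all tested probe sets as well. Between C57BL10 muscles the count fell most without diaphragm sample 1 or 2, gastroc sample 2, quadriceps sample 1 or soleus sample 2. There too, calls over all tested probe sets fell in each fit. The single arrays of mdx gastroc and mdx5cv gastroc could not be left out, since the group would be empty.

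Differences that were not called turned sign near 0. Jun in mdx was -0.012 in the third period, -0.13 with the actin ratio and -0.0025 to 0.17 with 1 array left out, and Egr1 in mdx was -0.0091 with period as a block. Jun in mdx5cv was -0.064 with quantile normalization and -0.076 with the actin ratio. Between the mutants Jun was -0.16 with quantile normalization and -0.069 to 0.14 with 1 array left out. Junb was -0.015 with quantile normalization, -0.081 with scan day, -0.11 without the 2 arrays that stand apart and -0.11 to 0.24 with 1 array left out. Egr1 was -0.13 with quantile normalization, -0.051 with the gastroc copies kept and -0.070 to 0.13 with 1 array left out.

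Sample numbers were not treated as pairs in the main fit. Over 120 pairs of groups the correlation of deviations was -0.36 to 0.62 (median 0.05), and 46 were over 0.1. In the diaphragm, EDL, quadriceps and soleus of both mutants, sample 1 was scanned in the second period and sample 2 in the third. Sample number thus went with period there, and a part shared by same-numbered samples was not excluded. With sample number as a replicate block the counts were 4, 4, 0, 8, 0 and 3. In the related lists, the third period alone gave, for mdx and mdx5cv, 1 and 3 higher targets (from 7 and 6), 0 and 1 higher immediate early products (from 9 and 8), 0 and 1 higher transcription factors (from 6 and 3), and none in the AP-1 relatives, upstream and Myc lists (from 1 and 1, 3 and 1, and 1 and 2). The third-period fit used fewer arrays, and its share called over all tested probe sets is not given here. Signals near the floor limit what can be said of Myc and the other dim probe sets.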
